A study of Mus musculus with 4 samples.

Results

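Wnt9b and Wnt3 are neighbouring genes of secreted Wnt ligands on mouse chromosome 11, and their chromatin held 90 of the 77823 peaks deposited from a Malat1 pull-down experiment. The peaks were taken by position: each has its summit inside 1 of the genes or within 5 kb of it, in mm10 coordinates (GRCm38). Malat1 is an abundant nuclear long noncoding RNA. It was captured from sonicated nuclei of 4T1-TGL cells, a BALB/c mouse breast cancer line whose genotype is labelled WT, by ChIRP, in which biotinylated antisense oligonucleotides recover an RNA together with the DNA near it. The 4 libraries were an Even and an Odd pull-down, a Lacz pull-down and an Even input, 1 library each, and a LacZ pool is the usual non-targeting control of this assay. All carry the same label of genotype and line. The deposited list compares 1 merged treatment with 1 input, and the file headers and labels do not say whether that treatment includes the Lacz library. No peak has a replicate, and no value below can be assigned to the Even, Odd or Lacz library. The 2 genes were selected on their many summits in this same list. Their counts and densities are therefore descriptions, and no test was made on them. These are DNA data, so neither the expression of the genes nor the identity of the line could be read from marker genes.

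Wnt proteins are lipid-modified signals that cells secrete over short distances. They bind Frizzled receptors with the co-receptors Lrp5 and Lrp6, and in the canonical branch this stabilises beta-catenin, which then acts with Tcf and Lef factors on target genes. Wnt3 is needed for the primitive streak of the mouse embryo and is made by Paneth cells of the intestinal crypt. It was also found as Int-4, an insertion site of the mouse mammary tumour virus. Wnt9b induces the epithelial conversion of kidney mesenchyme and takes part in closure of the lip and palate.

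The genes lie head to head. Wnt3 (gene ID 22415) runs rightwards from 103774175 to 103818021, and Wnt9b (gene ID 22412) runs leftwards. The RefSeq table places Wnt9b at 103727362 to 103775272, a span of 47911 bp that overlaps the first 1098 bp of Wnt3. The RefSeq promoter table gives Wnt9b a start at 103749821, which leaves a body of 22460 bp and 24354 bp between the starts of both genes. No annotated gene lies wholly between these starts. The table used has no exons, so positions are given as distances and not as exon or intron.

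The promoters at the promoter-table starts are shown because these starts are the natural landmarks of the stretch and no peak touched either promoter. The longer Wnt9b span instead ends at 103775272, close to peaks at 103774878 to 103775227 and at 103775295 to 103776726. No promoter sequence was taken at that end. Each sequence has 250 bases before and 50 after the start, on the strand of the gene, from RefSeq (GRCm38.p6). Capitals mark the motifs GGGCGG (the GC box) and CCAAT on either strand. The first is chr11:103749772-103750071 on the minus strand and the second chr11:103773925-103774224 on the plus strand.
Wnt9b: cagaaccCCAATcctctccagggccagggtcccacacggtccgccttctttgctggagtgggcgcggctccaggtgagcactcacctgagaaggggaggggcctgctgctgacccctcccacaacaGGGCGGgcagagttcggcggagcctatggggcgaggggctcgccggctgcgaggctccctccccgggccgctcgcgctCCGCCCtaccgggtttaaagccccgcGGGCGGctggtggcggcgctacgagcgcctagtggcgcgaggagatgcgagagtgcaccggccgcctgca
Wnt3: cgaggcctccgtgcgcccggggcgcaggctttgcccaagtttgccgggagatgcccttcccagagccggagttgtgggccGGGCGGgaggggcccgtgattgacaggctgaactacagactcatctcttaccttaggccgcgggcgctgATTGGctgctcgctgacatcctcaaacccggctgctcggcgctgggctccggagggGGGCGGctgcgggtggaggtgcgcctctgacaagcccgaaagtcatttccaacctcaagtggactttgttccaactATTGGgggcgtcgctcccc

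Both promoters were GC-rich. The Wnt9b promoter had 71.7% G and C, more than 92.6% of the 32619 promoters of the table, with 29 CpG pairs. The Wnt3 promoter had 65.7%, more than 82.9% of them, with 24 CpG pairs. The GC box occurred 3 times at Wnt9b and 2 times at Wnt3, and 35.9% of all promoters held at least 1. CCAAT occurred 1 time and 2 times, and 37.6% of all promoters held it. Neither held TATAAA, which 13.7% of all promoters held. Such matches describe letters only.

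The Wnt9b promoter lay in a stretch of 1656 bp without a peak, from the end of a peak at 103749396 to the start of the next at 103751053. The Wnt3 promoter lay in one of 2491 bp, between 103771854 and 103774346. Of all 32619 promoters, 632 (1.94%) were overlapped by a peak, and of the 134 promoters of the surrounding block at 101 to 106 Mb, 25 (18.7%) were. Peak intervals covered 13.5% of the promoter bases of that block and 14.7% of the whole block outside the pair. A promoter without a peak was thus the common case over all promoters and over the block as a whole. Summits were sparser in the block outside the pair, at 0.313 per kb, than in the 100 kb to the left (0.68) and right (0.85) of the pair. The share for the block is therefore not that of the sequence next to the pair. Peaks covered more of the pair (50.9%) and of the 100 kb to its left (42.6%) and right (43.0%). Among the 4 nearest protein-coding genes on each side, peaks overlapped promoters of Lyzl6, Gosr2, Arf2 and Sppl2c. Another Gosr2 promoter and those of Gm884, Rprml, Nsf and Crhr1 were without a peak. In the block, 8 of 50 promoters with at least 60% G and C were overlapped (16%, 95% Wilson interval 8.34 to 28.5), and 17 of 84 with less (20.2%, interval 13.0 to 30.04).

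Outside the promoters, peaks lay close together over the whole stretch. Wnt9b had 57 summits in 57.9 kb and Wnt3 had 43 in 53.8 kb, and 10 of these were in both windows. The joined stretch of 100.66 kb held 0.894 summits per kb, or 1 in 1118 bp, and peak intervals covered 51257 bp of it (50.9%). The peaks held 4468 tags, 0.525% of the 851227 treatment tags (95% Wilson interval 0.510 to 0.540). This and the other intervals cover counting error only and take tags as independent. Of the 100 bins of 1 kb along the stretch, 27 had no summit, 57 had 1, 15 had 2 and 1 had 3. The median distance from a summit to the next was 925 bp, against 17010 bp over the list.

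**Figure D1:**
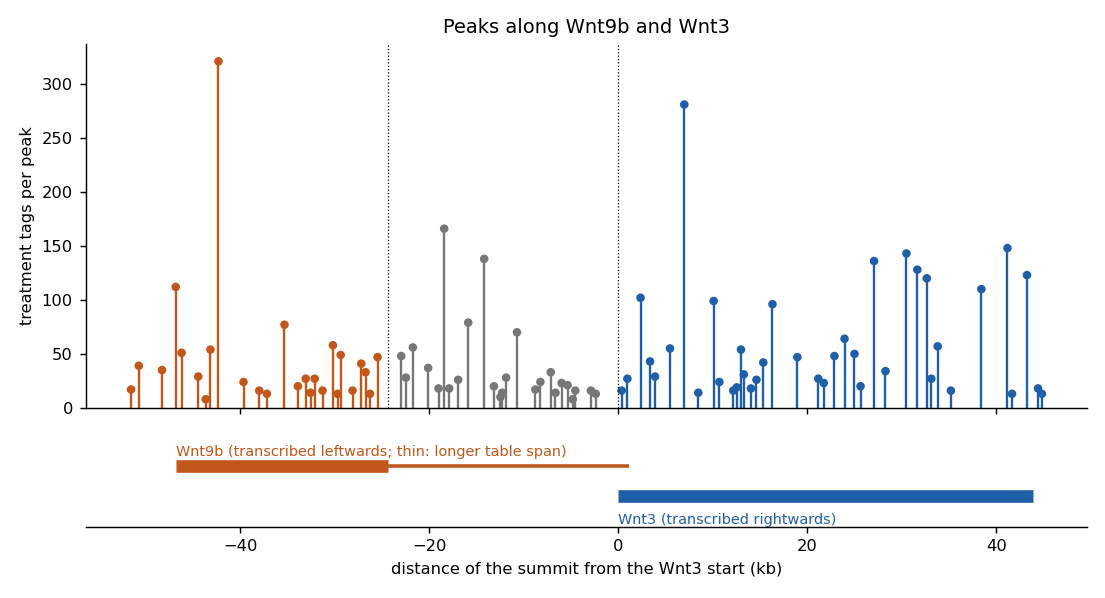
Treatment tags of each of the 90 peaks (vertical axis) against the distance of its summit from the Wnt3 start in kb (horizontal axis), with Wnt9b and its 5 kb flank in orange, the stretch between the starts in grey and Wnt3 with its flank in blue. Dotted lines are the starts of both genes, bars below are the gene spans, and the tallest lines are the 321 tags in Wnt9b and the 281 tags in Wnt3.

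The peaks differed widely in size. Their tags ran from 8 to 321 with a median of 28, and none held 3 tags, the fewest of any peak in the list and the number in 28930 of the 77713 peaks on chromosomes 1 to 19 and X. At least 30 tags were in 42 of the 90 peaks (46.7%), against 4.01% of the list and 37.9% of the peaks of the block outside the pair. The share was 57.4% in the 100 kb to the left of the pair and 40% in the 100 kb to the right. The median length of the 90 peaks was 418.5 bp, against 135 bp in the list and 378 bp in the block outside the pair. It was 517 bp in the 100 kb to the left and 425 bp in the 100 kb to the right. Peaks over 500 bp were 39 of the 90 (43.3%), against 1.31% of the list, 32.5% of the block outside the pair and 51.5% of the peaks in the 100 kb to the left of the pair. The summit height, the pileup of tags at the summit, reached 22 at 6 of the 90 peaks. No peak of the list was higher, although tags reached 2818, and 96 of its peaks (0.124%) shared this height. In the pair the peaks at this height held from 128 to 321 tags, so height did not separate them. Whether the height is capped, and with it the fold of such peaks, was not tested. The 10 peaks with the most tags held 38.1% of all tags of the pair (95% Wilson interval 36.7 to 39.6). Across the 90 peaks, tags rose with length (Spearman's rho 0.870, n = 90 peaks of 1 list, a description without a test).

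In the body of Wnt9b, from its far end to the promoter-table start, 23 summits held 1079 tags, or 48.0 tags per kb. With the body divided into 3 equal parts, the part farthest from the start held 599 of these tags (55.5%) on 7 summits. The part next to the start held 286 on 9 summits, and the middle part 194 on 7. One peak accounted for most of this difference. It lay at 103731422 to 103733255, with its summit 17925 bp inside the gene. It held 321 tags (95% Poisson interval 287 to 358), stood at rank 13 of the list by tags and had a fold enrichment of 47.9. Fold enrichment, as deposited, divides the tag height of the summit by the largest background that the caller found nearby in the scaled input. A second large peak, with 112 tags and a fold of 40.9, spanned the far end of the gene at 103726695 to 103727822.

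Near its start Wnt9b had peaks of middling size. The nearest summit lay 1093 bp inside the gene and belonged to a peak of 47 tags with a fold of 19.8. The smallest peak of the body held 8 tags. In the 5 kb beyond the far end of Wnt9b there were 3 summits with 17 to 39 tags. The lncRNA gene C130046K22Rik, which ends at 103725573, reaches into that flank.

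Between the starts, the 24.4 kb that the longer Wnt9b span includes held 25 summits with 941 tags, or 38.6 tags per kb. The density of summits there, 1.03 per kb, was close to the 1.02 per kb of the Wnt9b body. The largest peak lay at 103755445 to 103756028, 5951 bp upstream of the Wnt9b start and 18403 bp upstream of the Wnt3 start. It held 166 tags (95% Poisson interval 142 to 193) in 584 bp, the highest tag density of the 90 peaks at 284 tags per kb of peak. Its fold of 55.2 was also the highest of the pair. A peak of 1509 bp at 103758694 to 103760202 followed with 138 tags and a fold of 30.8. Both are in the window of Wnt9b alone and in neither window if the Wnt9b span ends at 103749821.

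Toward Wnt3 the peaks became small. The 7 summits nearest its start on the upstream side, 2366 to 6628 bp away, held 8 to 23 tags with folds of 9.23 to 13.7. Their implied input, defined below, was 25.4 to 29.0 times the genome mean, within the range of the other peaks of the pair. The summit nearest the Wnt3 start lay 372 bp inside the gene, on a peak of 16 tags (95% Poisson interval 9.15 to 26.0) with a fold of 15.3. The start of Wnt3 thus fell in a gap of 2738 bp between summits, among the 3 largest of the pair.

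The body of Wnt3 held 37 summits and 2326 tags, or 53.05 tags per kb in 43.8 kb. Its summits were spaced more widely than those of the Wnt9b body, with a median distance of 1062 bp against 819 bp, and its peaks were longer, with a median of 580 bp against 380 bp. Of 3 equal parts, the one next to the start held 15 summits with 828 tags, the middle one 12 with 613 and the far one 10 with 885. The far part therefore had the fewest summits and the most tags, and its median fold was 29.2 against 16.04 next to the start. The median implied input was 26.0 in the far part and 29.6 next to the start.

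The largest Wnt3 peak lay near the start. It ran from 103780403 to 103782398, with its summit 6996 bp inside the gene, and held 281 tags (95% Poisson interval 249 to 316), at rank 18 of the list, with a fold of 42.2. At 1996 bp it was the longest of the 90 peaks. In the far part, 3 large peaks followed each other at 30494, 31646 and 32647 bp from the start, with 143, 128 and 120 tags. Their folds were 45.2, 46.1 and 46.1. The highest fold of Wnt3, 50.6, belonged to a peak of 148 tags at 103814819 to 103815476, 41178 bp from the start. The 2 largest gaps between summits, 3226 and 2756 bp, lay between these groups, at either side of a peak of 110 tags.

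Beyond the far end of Wnt3 the stretch thinned out. The flank of 5 kb held 2 summits with 18 and 13 tags, both within 1 kb of the gene, and the next summit followed after 4070 bp, inside Nsf. It lay 48 bp outside the 5 kb limit with 12 tags, and the one after it, 457 bp outside, held 63. At the other edge the outermost summit, 4712 bp from Wnt9b, held 17 tags, and the first beyond the limit, 6703 bp away, held 10.

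Compared with the whole list, the peaks of the pair had more tags and lower folds, and the input was deep over the whole stretch. The implied input of a peak is the height at its summit divided by its fold, in units of the genome-wide mean background of 0.0167 tags per fragment length. It gives the largest background that the caller found nearby in the scaled input, which can exceed the local level, and is known only at peaks. At the 90 peaks it lay between 21.8 and 33.1 times the genome mean with a median of 27.3, and the median of the list was 1.403. The median fold of the pair was 17.5, against 133 in the list, while its median height was 8 tags against 3. More DNA of this stretch in the cells and a higher recovery of it in the input cannot be told apart here, and the part of the input in the number of peaks was not tested.

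Peak by peak along the pair, the implied input changed less than the tags. The highest implied input was 1.52 times the lowest, whereas the tags per peak spanned a factor of 40.1 and the folds one of 6.05. These scales are unlike, since the background comes from windows of up to 10 kb and the tags from single peaks. Over equal stretches of 20.1 kb, tags in peaks ran from 40.8 to 48.3 per kb and the median implied input from 25.5 to 29.5. The lowest implied input of a peak lay 16923 bp upstream of Wnt3 and the highest 10101 bp inside it. Across the 90 peaks, Spearman's rho of fold was 0.977 with height and -0.0638 with implied input (descriptions without a test). Fold is computed from height and input, and neighbouring peaks share the input windows of up to 10 kb from which the background was taken. Within the pair, the order of the peaks by fold was therefore nearly their order by height. The 6 peaks that share the height of 22 are an exception, since input alone sets their order by fold. Among them the highest fold, 55.2, had the lowest implied input, 23.8, and the lowest fold, 42.2, had the highest, 31.2.

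**Figure D2:**
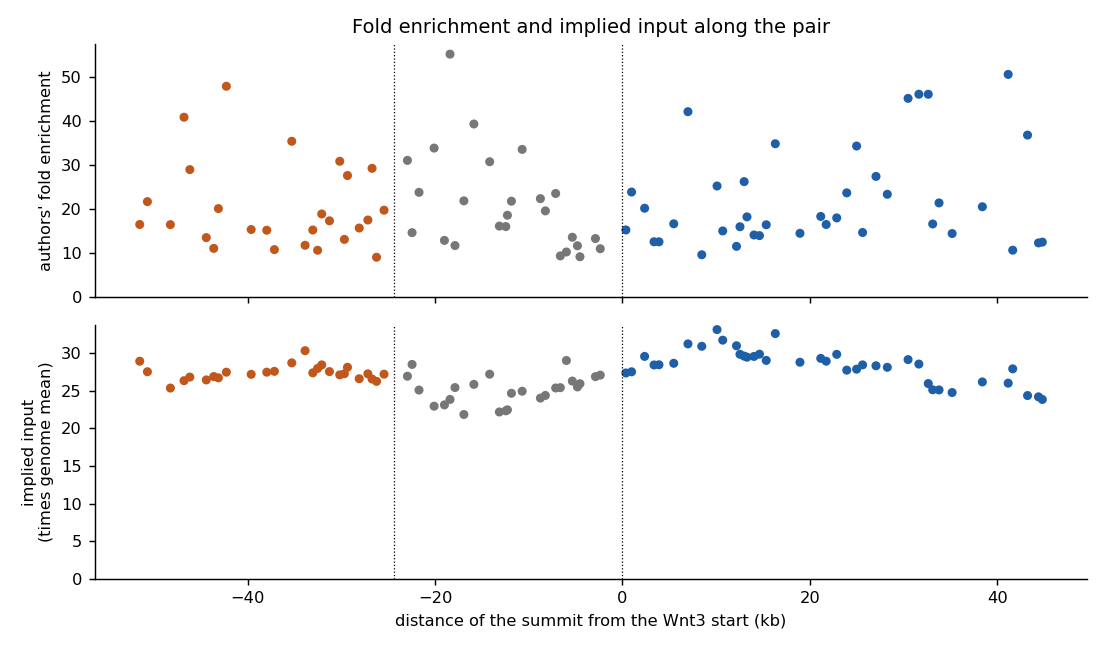
The authors' fold enrichment (upper panel) and the implied input in multiples of the genome mean (lower panel) of the 90 peaks, against the distance of the summit from the Wnt3 start in kb, in the same colours as the plot of tags, with dotted lines at both starts. Fold scatters between 9.12 and 55.2 from peak to peak, while the implied input moves smoothly between 21.8 and 33.1.

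Relative to their genome means, tags in peaks stood higher than the implied input. They amounted to 44.4 per kb, which is 141 times the genome mean of 0.315 treatment tags per kb and 5.17 times the median implied input. The value was 4.85 for the Wnt9b window and 4.99 for that of Wnt3. In the 100 kb to the left of the pair it was 4.37 and in the 100 kb to the right 4.07. Of fixed windows of 100 kb with at least 10 summits, the 18 in the block that do not touch the pair and have a median implied input of at least 20 had values of 1.76 to 5.80 with a median of 3.08. The 636 outside the block had 0.434 to 5.40 with a median of 1.48, and the 69 of these with a median implied input of at least 4 had 0.434 to 3.67. The pair lay inside the first and second of these ranges and above that of the 69 windows. The median implied input over these 69 windows was 4.32, against 27.3 at the pair, so as a set they are not of like input. The numerator counts tags in peaks alone and so moves with the share of bases in peaks, 50.9% here against 42.6% and 43.0% in the flanking 100 kb. The caller kept 1 tag per position, per the file headers. Strands were counted apart and the implied input was taken as the local level. Kept input tags then fill 25.3% of positions at the median implied input of the pair and kept treatment tags 2.22%. The effect of keeping 1 tag per position on the ratio was not tested.

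**Figure D3:**
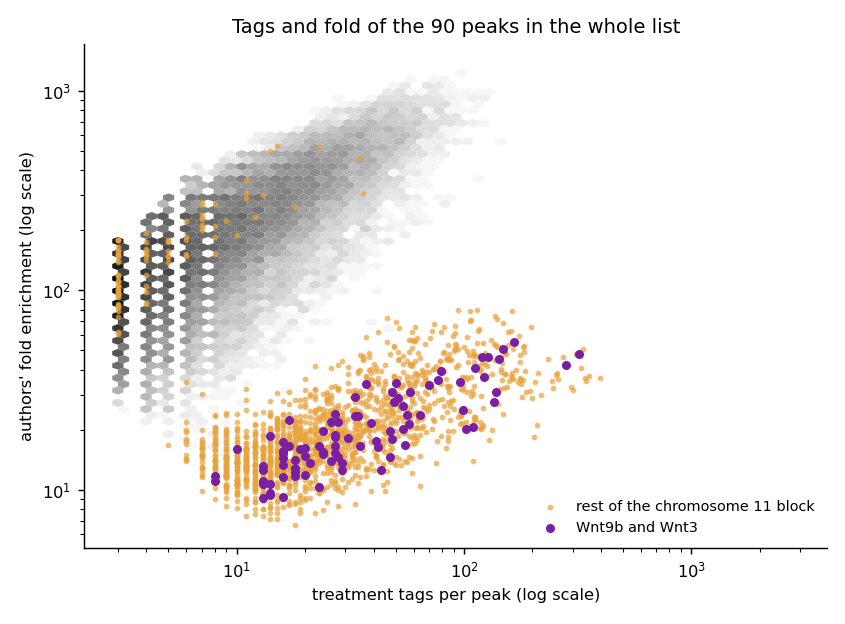
The authors' fold enrichment against treatment tags per peak, both on log axes, for the peaks outside the block (grey, darker where more peaks lie), the 1534 peaks of the block at 101 to 106 Mb of chromosome 11 outside the pair (yellow) and the 90 peaks of Wnt9b and Wnt3 (purple). The purple points lie among the yellow ones, with more tags and lower folds than most grey peaks.

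The neighbouring genes had values much like those of the pair. To the left lie Gosr2, a SNARE protein of the Golgi, with 0.810 summits per kb, Rprml with 0.632, Lyzl6 with 0.673 and Gm884 with 0.557. To the right lie Nsf, the ATPase that recycles SNARE complexes, with 0.822, Arf2, a small GTPase of vesicle transport, with 0.734, Crhr1, the receptor of corticotropin-releasing hormone, with 0.854, and Sppl2c with 0.674. Wnt3 had 0.799 and lay within this range, and Wnt9b had 0.984, above it. By tags in peaks, Lyzl6 with 53.9 per kb and Rprml with 47.2 stood above Wnt3 with 44.8 and Wnt9b with 41.1, and the other 6 stood below. The median implied input of the 8 neighbours was 20.9 to 27.3, against 26.9 at Wnt9b and 28.4 at Wnt3.

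**Figure D4:**
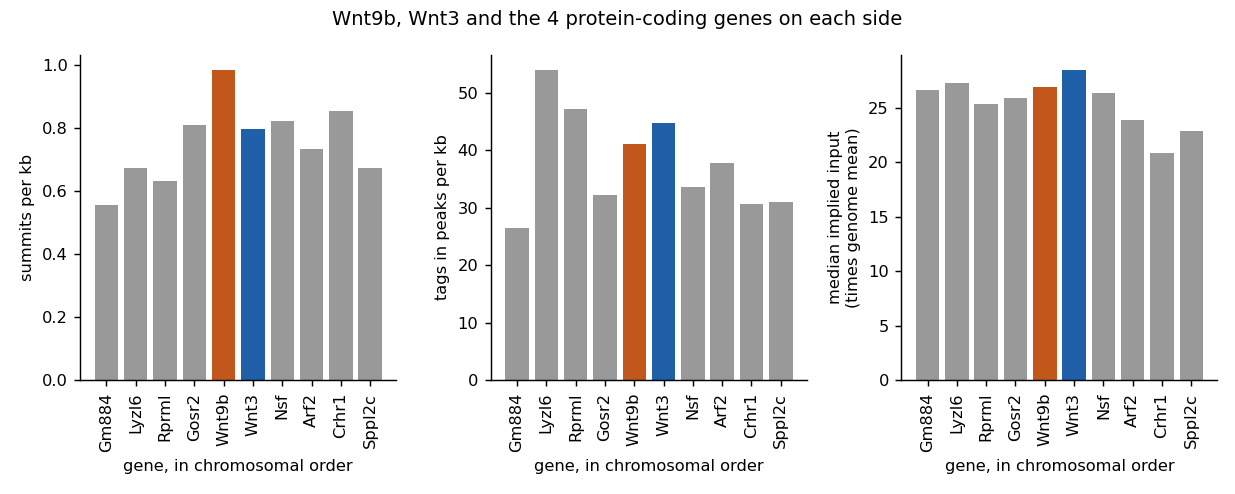
Summits per kb, tags in peaks per kb and median implied input in multiples of the genome mean (bars, from 0) for Wnt9b (orange), Wnt3 (blue) and the 4 nearest protein-coding genes on each side (grey), in chromosomal order and each with 5 kb on both sides. Wnt9b has the tallest bar for summits, Lyzl6 for tags and Wnt3 for input.

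Among all 21631 protein-coding genes, Wnt9b had the highest number of summits per kb and Wnt3 stood at rank 11. By tags in peaks per kb they stood at ranks 10 and 9, and Spata32, a spermatogenesis-associated gene of the same block, was first with 90.8. With the Wnt9b span ended at 103749821, Wnt9b had 30 summits in 32.5 kb, or 0.924 per kb, and stood at rank 2 behind Spata32 with 0.936. Its tags per kb were then 41.3, and no summit was shared with the window of Wnt3. The count of 57 thus rests in part on the longer gene span. Likeness was measured as the distance in log2 summits per kb and log2 median implied input over the 217 other genes with at least 20 summits. The genes nearest to Wnt9b were Nsf, Mapt and Gosr2, and those nearest to Wnt3 were Lrrc37a, Nsf and Gosr2. These 4 genes also lie in the block.

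At the other Wnt ligand genes summits and tags were sparser. Of the 17, 11 had a summit in the gene or within 5 kb, and over all protein-coding genes the share with a summit was 60.8%. Together they held 35 summits with 234 tags in 666 kb, or 0.0526 summits per kb. The median over the 17 genes was 0.0349 summits per kb, against 0.0261 over all protein-coding genes. The median implied input per ligand gene was 1.06 to 1.84, close to the 1.39 of all protein-coding genes with a summit. The densest was Wnt11, a noncanonical ligand, with 7 summits, 62 tags and 0.236 summits per kb. Next came Wnt10b, which acts in mammary and fat tissue, with 3 summits and 0.171 per kb, Wnt9a with 4 and 0.109, and Wnt5a, a noncanonical ligand, with 3 and 0.0912.

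Sequence relatives of the pair had fewer peaks than the pair. Wnt3a, the closest relative of Wnt3, had 1 summit of 3 tags with a fold of 102, and Wnt9a, the closest relative of Wnt9b, had 4 with 24 tags. Both also lie on chromosome 11, Wnt3a at 59248036 to 59290751 and Wnt9a at 59306849 to 59333552, far outside the dense block. Their folds were above those of the pair, with a median of 109 at Wnt9a, and their implied inputs were 1.18 and 1.36. No summit was found at Wnt1, Wnt2, Wnt2b, Wnt8a, Wnt8b or Wnt16.

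**Figure D5:**
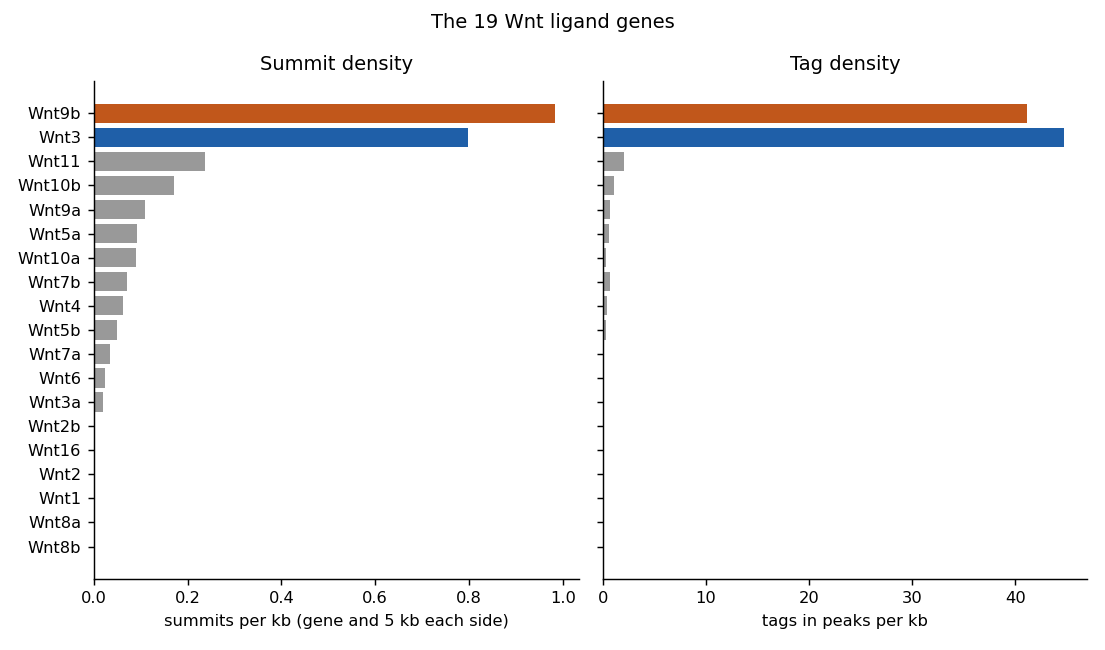
Summits per kb (left) and tags in peaks per kb (right) of the 19 Wnt ligand genes, each taken with 5 kb on both sides, as bars from 0 with Wnt9b in orange, Wnt3 in blue and the others in grey. Wnt9b and Wnt3 stand at 0.984 and 0.799 summits per kb, and Wnt11, the next, at 0.236.

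The 36 listed pathway genes other than ligands had densities like those of the other ligands. Of these 36 genes, 25 had a summit, against 60.8% of all protein-coding genes, with 108 summits in all at 0.0407 per kb. They were 6 of 12 receptors (Frizzled genes, Lrp5 and Lrp6), 2 of 3 genes of ligand secretion and release, 9 of 12 transducers and nuclear factors, and 8 of 9 genes of the R-spondin axis, which sets the number of receptors. The densest were Rspo4 with 0.167 summits per kb, Fzd6 with 0.119, Dvl3 with 0.111 and Tcf7 with 0.107. The highest median implied input among them was 2.64, at Fzd6.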

How the data were processed

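Per the file headers, the authors ran MACS 1.4.4 on 1 merged treatment of 851227 kept tags and 1 input of 50030325, 58.8 times as deep and scaled down by the caller. The run took a p cutoff of 1e-05, fragments of 53 bp and an effective genome size of 2.7 gigabases. The submitters' processing notes name the build as mm10 (GRCm38). Which libraries were merged and the aligner are not given in the sources used here. Reads were single, of 76 nt, per the labels' protocols. The deposited tag count of a peak is its whole-number count of treatment tags. The deposited fold enrichment is a ratio. The deposited score, 10 times −log10 of the p, served as a stricter threshold. The deposited summit height is a signal, unscaled. The deposited false discovery rate is 0 percent throughout.

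Summits were assigned to RefSeq gene spans (GRCm38.p6) widened by 5 kb, with Python 3.11.15, pandas 2.3.3 and scipy 1.17.1, and both genes were found in the gene and promoter tables. Values cover the 77713 peaks of chromosomes 1 to 19 and X; the 110 others were left out. Counting of summits was tested on simulated data. The members, gene lists and alternatives were chosen with earlier results of these data known. Named genes are Wnt9b, Wnt3, the 4 nearest protein-coding genes on each side, the most alike genes and the densest of the pathway lists, and Spata32, C130046K22Rik and the genes without a summit were added after values were seen. Named peaks are, per gene, those with the most tags, the highest folds, the greatest length and the summit nearest the start; peaks at edges and gaps were added after values were seen. With 1 list and genes selected on it, no test was made.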

Additional observations from a re-analysis of the deposited data

How the results depend on the processing

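Counts, median folds and median implied inputs of Wnt9b and Wnt3 (6 results) were recomputed under 61 combinations of result and alternative, and 57 stayed within 1.5 times the count or within the 95% order-statistic interval of the median. The alternatives were flanks of 0, 1 and 10 kb, a score of at least 100, at least 4 or 10 tags, assignment by interval overlap, summits within 500 bp joined, and another genome size. Chosen after seeing the data were a Wnt9b span ended at the promoter-table start and shared peaks left out. The 4 that moved were the Wnt9b count with the shorter span (30 in place of 57, by construction a shorter window), the median fold of Wnt9b at a score of at least 100 (21.8 in place of 16.7, with the weaker peaks removed), and the median implied inputs with the smaller genome size that MACS presets for mouse (18.6 for Wnt9b and 19.7 for Wnt3, a change of unit). Over all alternatives the Wnt3 count ran from 31 to 56. The Wnt9b count at a score of at least 100 was 38, at the very limit of 1.5 times, and was counted as staying. The setting of at least 4 tags could not move any result, since no peak of the pair held so few, and its agreement carries no weight. No paired analysis was possible because each group has 1 library and the list merges libraries. Where the median implied input was 27.3 the smallest of the 90 peaks held 8 tags, against 3 in the list. Whether the depth of the input set the smallest peak that could be called was not tested.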
